A study of Mus musculus with 2 samples.

Results

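The 9 genes described here are Atf6, Atf6b, Ern1, Xbp1, Mbtps1, Mbtps2, Creb3, Creb3l1 and Creb3l2, which encode stress sensors of the endoplasmic reticulum (ER) membrane, the factors that act with them and the proteases that release them. They were chosen by gene symbol, and every probe set assigned to exactly 1 of these symbols was taken, which gave 24 of 45037 probe sets, for 9 of 18193 genes on the array. Neuro2a, a mouse neuroblastoma line, was transfected with a non-specific control siRNA in 1 sample and with an siRNA against Tmem132a (mKIAA1583) in the other, and total RNA of each was hybridised to 1 Affymetrix Mouse Genome 430 2.0 array. The time after transfection and the number of cultures behind each RNA are not given in the sources used here. There was 1 array per group. Differences therefore carry no replicate error and no p-value, and are given by size, as the log2 ratio of Tmem132a siRNA over control siRNA, with a precision limited by the number of arrays.

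The ER membrane carries sensors that report unfolded protein in the lumen. IRE1, encoded by Ern1, is a kinase and ribonuclease that removes a short intron from Xbp1 mRNA, so that the active factor XBP1s is made. ATF6 is itself a transcription factor tethered in the membrane: under stress it moves to the Golgi, where site-1 protease (Mbtps1) and site-2 protease (Mbtps2) cut it and free its DNA-binding part. The same proteases cut the sterol regulators SREBP and the CREB3-type factors, which share the membrane-bound design of ATF6. The array reads the mRNA of these genes, and does not read cleavage, the step that activates ATF6.

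Both arrays were scaled alike, with a 2% trimmed mean signal of 496.328 and 496.319, and median signals of 76.2 and 81.7. A probe set was used for a gene value when its mean signal reached 77.25, the median of all probe sets, and 10678 genes had such a value, the mean log2 ratio over their probe sets. Probe sets of 1 gene scattered around their gene mean with an SD of 0.39 over 5072 genes. This is scatter between probe sets within the same pair of RNA samples and leaves out variation between cultures. How much of it is technical error was not tested. Tmem132a, the targeted gene, went from 1825.5 with the control siRNA to 435.6 with its own siRNA, in the direction of the sample titles. The free-text description of the latter sample repeats the wording of the control. Of 12 neuroblast markers 10 had a probe set, and all 10 passed the filter, with Hand2 at 15242 and Phox2a at 5143.9 on the control array and ratios from -0.51 to -0.04, the lowest being Isl1 (-0.51), Mycn (-0.48) and Stmn2 (-0.45). Markers of other cells mostly did not: 0 of 8 for fibroblasts and 0 of 6 for glia passed, as did 1 of 7 for immune cells (Csf1r, 169.8 and 158.5) and 1 of 8 for epithelium and endothelium (Epcam, 70.9 and 146.1). Epcam passed through its Tmem132a siRNA signal alone, as its control signal lay under the filter value. Summed over the brightest probe set of each gene, the lists of these other cells went from 305.7 to 272.7, 157.8 to 292.1, 279.9 to 464.9 and 260.6 to 402, and their part in the results was not tested.

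Among the 9 genes, only Atf6 differed 2-fold or more as a gene, and it was higher with the Tmem132a siRNA. Of the 24 probe sets 19 passed the filter, 17 with a ratio above 0 and 2 below. These are repeated readings of 8 genes. As genes, 7 had a ratio above 0 and 1 below, where 51.8% of all genes had a ratio above 0. A total of 4 probe sets were at least 2-fold higher, 3 of Atf6 and 1 of Creb3l2, and 0 at least 2-fold lower, where 2.49% and 2.88% of all 19316 probe sets with 1 symbol past the filter were so. At the level of genes, 1 of 8 was at least 2-fold higher (2.1% of all genes were) and 4 of 8 at least 1.5-fold higher (8.83% of all genes), with 0 at least 1.5-fold lower (9.1%). Those 4 were Atf6, Mbtps2, Creb3 and Creb3l2; when only a gene's brightest probe set counted, 2 of 8, Atf6 and Mbtps2, were at least 1.5-fold higher. The median over the 8 genes was 0.55 and over all genes 0.02. Each of the 19 probe sets had a signal above 77.25 on both arrays, the lowest being 100.1, so none entered the count through 1 array alone. A lower or higher signal in RNA of a whole culture cannot tell a change in the number of cells that make a transcript from a change in the RNA per cell.

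**Figure D1:**
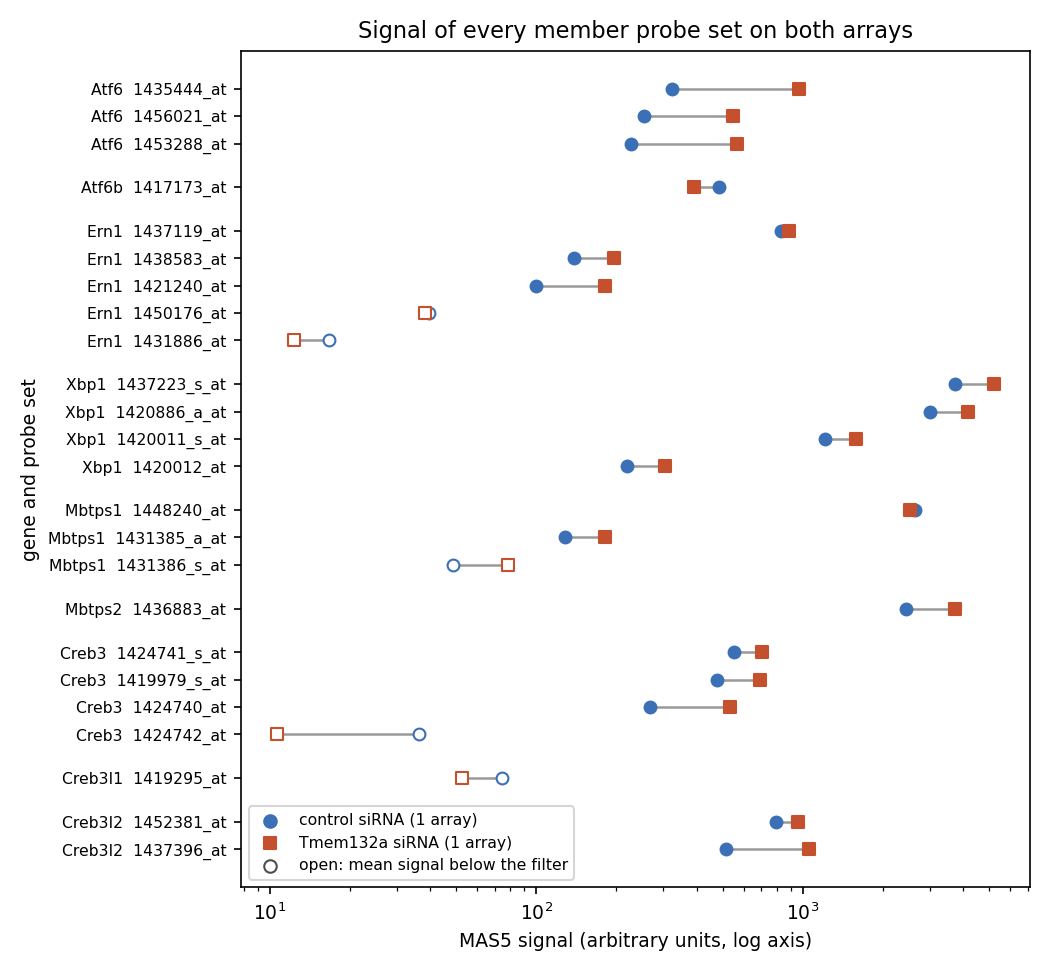
MAS5 signal (log axis) of each of the 24 probe sets, with the control siRNA array as circles and the Tmem132a siRNA array as squares, 1 array each. Open symbols mark the 5 probe sets below the signal filter. Among the filled symbols, the 3 lines of Atf6 are long and run the same way, and those of Xbp1 are short and nearly equal in length. Atf6b and the bright probe set of Mbtps1 run the other way. Of the open ones, that of Creb3 1424742_at (36.2 to 10.6) is also long and runs to lower signal, as do those of Creb3l1 and Ern1.

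Atf6 was the sensor with the clearest difference. Its brightest probe set, 1435444_at, read 324.2 after control siRNA and 972 after Tmem132a siRNA. Probe set 1453288_at went from 225.8 to 567.5, and 1456021_at from 254.4 to 548. All 3 were thus higher on the Tmem132a siRNA array, by 3-fold, 2.51-fold and 2.15-fold. The gene ratio was 1.34 ± 0.24 (SD over 3 probe sets), or 2.53-fold, and 0.73% of the 10678 genes were as high or higher. Among 6828 probe sets with a mean signal within 2-fold of that of 1435444_at, 6 had a ratio as high or higher, itself included. For the other probe sets of Atf6 the counts were 33 and 100 of 7009.

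Atf6b encodes the paralog of ATF6, also a membrane-bound factor cut by the site proteases. Its only probe set, 1417173_at, read 484.9 after control siRNA and 389.5 after Tmem132a siRNA, a ratio of -0.32. It was the only 1 of the 8 genes with a ratio below 0, and 78.8% of all genes had a ratio as high or higher. The paralogs thus lay on opposite sides of 0, although the ratio of Atf6b was smaller in size than the typical probe set scatter of 0.39. Atf6b has no second probe set here to set beside this value.

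Ern1, the gene of IRE1, was measured by 5 probe sets that did not give 1 answer. The brightest, 1437119_at, went from 826.5 to 888.3, a ratio of 0.10. Dimmer ones gave 138.2 and 195.7 (ratio 0.50) and 100.1 and 181.2 (ratio 0.86). A further pair below the filter had ratios of -0.06 and -0.20, with signals of at most 39.7. The gene ratio was 0.49 ± 0.38 (SD over 3 probe sets), and among these 3 the dimmer probe sets had the larger ratios. By its brightest probe set alone Ern1 differed by 1.07-fold. Ern2, the gene of the second IRE1 protein, which is known from gut epithelium, had signals of 6.5 and 3.3 and did not pass the filter.

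Xbp1, whose mRNA is the substrate of IRE1, was modestly higher in all of its 4 probe sets. Signals went from 3736.1 to 5220.2 in 1437223_s_at and from 3001.2 to 4158.5 in 1420886_a_at. They went from 1211.1 to 1587.4 in 1420011_s_at and from 218.1 to 304.9 in 1420012_at. The ratios of 0.48, 0.47, 0.39 and 0.48 gave a gene ratio of 0.46 ± 0.04 (SD over 4 probe sets), or 1.37-fold. This was the smallest SD among the 6 genes with several probe sets past the filter, although its probe sets spanned mean signals from 261.5 to 4478.1. The ratio stayed under 1.5-fold, and 14% of all genes were as high or higher. The annotation used here does not say which probe sets cover the intron that IRE1 removes, so the values are for Xbp1 mRNA as a whole and the spliced share was not measured.

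The site proteases differed from each other. Mbtps1, site-1 protease, a subtilisin-type enzyme that makes the first cut in the Golgi lumen, had a bright probe set, 1448240_at, at 2634.9 and 2537.9 (ratio -0.05). Its dimmer probe set 1431385_a_at gave 127.6 and 180.7 (0.50), and 1431386_s_at, below the filter, gave 48.7 and 78.4 (0.69). The gene ratio of 0.22 ± 0.39 (SD over 2 probe sets) thus averages a bright probe set near 0 and a dim one that was 1.42-fold higher. Mbtps2, site-2 protease, the metalloprotease that makes the second cut inside the membrane, had 1 probe set, 1436883_at, at 2439.4 and 3746.1. That is a ratio of 0.62 or 1.54-fold, and 130 of 3533 probe sets of similar signal (3.68%) were as high or higher. A further probe set, 1437495_at, lists the symbol of Mbtps2 together with another gene and was left out by the rule; its signals were 756.1 and 466 (ratio -0.70), and which transcript it reads cannot be told from the annotation.

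**Figure D2:**
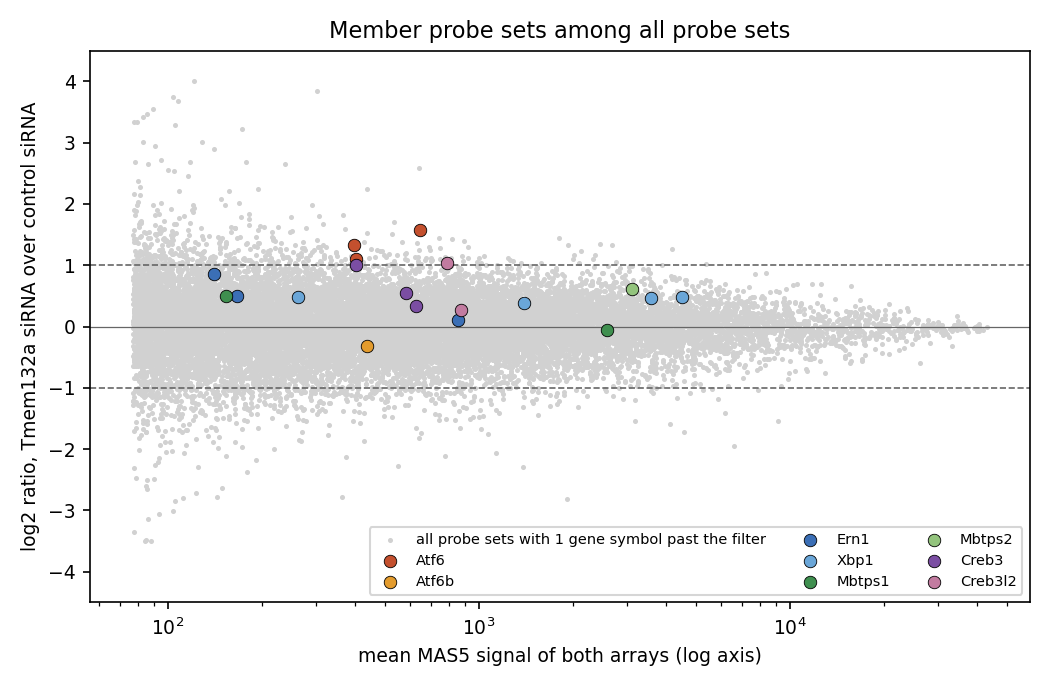
Log2 ratio (Tmem132a siRNA over control siRNA) against the mean MAS5 signal of both arrays (log axis), for 19316 probe sets with 1 gene symbol past the filter in grey and for the 19 probe sets of the 8 genes in colour. Dashed lines mark 2-fold. Atf6 lies above the upper line in all 3 probe sets, 1 probe set of Creb3l2 lies just above it, and the bright probe sets of Xbp1 and Mbtps2 lie between 0.39 and 0.62.

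The CREB3-type factors are cut by the same proteases and act on the secretory pathway. Creb3, also called Luman, was higher in all 3 of its probe sets past the filter. Signals went from 553.6 to 700.5, from 475.3 to 688.8 and, in 1424740_at, from 267.7 to 534.7, with ratios of 0.34, 0.54 and 0.998. The last lies just under 2-fold (1.997-fold). The gene ratio was 0.62 ± 0.34 (SD over 3 probe sets). The dim probe set 1424742_at went the other way, from 36.2 to 10.6, with the lower signal under the floor of 14.5, and with it the gene ratio would be 0.14.

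Creb3l2, a factor known for inducing COPII coat genes in cartilage, was measured by a pair of probe sets of like brightness. One, 1437396_at, went from 517 to 1056 (2.04-fold), and 59 of 6668 probe sets of similar signal (0.885%) were as high or higher. The other, 1452381_at, went from 794.3 to 960 (1.21-fold), and 26.4% of probe sets of similar signal were as high or higher. The gene ratio was 0.65 ± 0.54 (SD over 2 probe sets), so its own probe sets disagree by more than the typical scatter of 0.39. Creb3l1, also called OASIS, a factor of osteoblasts and astrocytes, was dim, with 74.1 and 52.7, and has no gene value. Of the relatives outside the 9 genes, Creb3l3, a liver factor, had 141.5 and 179.4 (0.34), and Creb3l4 was below the filter with 52.5 and 81.8.

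The third sensor of the ER membrane is PERK, the eIF2-alpha kinase encoded by Eif2ak3, with 948 and 1169.2 in its bright probe set (ratio 0.30). Gene ratios of the sensors were therefore 1.34 for Atf6, 0.49 for Ern1 and 0.30 for Eif2ak3. By the brightest probe set alone they were 1.58, 0.10 and 0.30, so the order of Ern1 and Eif2ak3 depends on dim probe sets. The other probe sets of Eif2ak3 were below the filter. The PERK branch as listed had values for 10 genes, all above 0, with a median of 0.40. A total of 3 were at least 2-fold higher and 0 lower, against 2.1% and 2.44% of all genes. They were Atf3 (1.39), Trib3 (1.23) and Ddit3 (1.01), the gene of CHOP. Atf3 had 1 probe set, and the brightest probe set of Ddit3 lay at 0.97, just under 2-fold. The activity of PERK was not measured, and whether these genes followed it was not tested.

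Genes that ATF6 is known to induce lay on both sides of 0. Of 20 listed ER chaperones and quality control genes 19 had a value, 8 above 0 and 11 below, with a median of -0.04. Of these 0 were at least 2-fold higher or lower, against 2.1% and 2.44% of all genes. At shares this small, a count of 0 in a list of this size does not set it apart. Hspa5, the gene of BiP, the chaperone that holds ATF6 in the ER, had probe sets at 15295.1 and 18941.6, 6697.8 and 7987.2, and 1148.4 and 1427.1, with a gene ratio of 0.29. Herpud1, a component of ER-associated degradation, lay at 0.52 and the disulfide isomerase Pdia4 at 0.43. Canx, the lectin chaperone calnexin, was the lowest at -0.85 over 3 probe sets, from 7883.9 to 4845.8 in the brightest. Hsp90b1 lay at -0.01, Calr at 0.06, Creld2 at -0.23 and Manf at -0.31.

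ATF6 binds, together with the factor NF-Y, an ER stress element (ERSE) made of CCAAT, any 9 bases and CCACG, and a shorter variant (ERSE-II) made of ATTGG, any 1 base and CCACG. Both were searched on both strands of RefSeq promoter windows of mouse build GRCm38.p6, 250 bases before to 50 after each start, after the values had been seen. ERSE was found in 0.119% of 32851 windows and ERSE-II in 0.0365%. The sites below are examples from genes named here, shown because they hold the letters of these elements. They are matches of letters, and binding of ATF6 to them was not measured. The fixed letters of the motif are in capitals, and each site runs 5′ to 3′ on the strand given.
Hspa5, chr2:34772025-34772043, plus strand: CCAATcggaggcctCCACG
Calr, chr8:84847075-84847093, plus strand: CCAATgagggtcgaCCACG
Hsp90b1, chr10:86705638-86705656, minus strand: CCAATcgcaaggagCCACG
Hsp90b1, chr10:86705533-86705551, plus strand: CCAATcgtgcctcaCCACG
Canx, chr11:50325800-50325818, minus strand: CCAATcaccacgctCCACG
Pdia6, chr12:17266491-17266509, plus strand: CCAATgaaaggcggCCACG
Dnajc3, chr14:118937827-118937845, plus strand: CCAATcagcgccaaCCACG
Creld2, chr15:88819520-88819538, minus strand: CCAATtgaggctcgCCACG
Syvn1, chr19:6046532-6046550, plus strand: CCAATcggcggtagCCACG
Herpud1 (ERSE-II), chr8:94386377-94386387, plus strand: ATTGGgCCACG
Nucb1 (ERSE-II), chr7:45510439-45510449, plus strand: ATTGGtCCACG

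The genes with these letters lay on both sides of 0. Of 37 genes with an ERSE 13 had a value, 4 above 0 and 9 below, with a median of -0.09. Where 2.1% of all genes were at least 2-fold higher and 2.44% lower, none of the 13 was. Those shown ran from 0.29 for Hspa5 through -0.08 for Pdia6, -0.12 for Dnajc3 and -0.23 for both Creld2 and Syvn1 to -0.85 for Canx. Of 12 genes with an ERSE-II 8 had a value, 6 above 0 and 2 below, with a median of 0.23. The ones shown, Nucb1 (0.68) and Herpud1 (0.52), were the highest of these. Dnajb11, a listed ATF6 target whose ERSE-II is not shown, lay at 0.07. Nucb1 encodes nucleobindin 1, which is known to limit the cleavage of ATF6 by site-1 protease, and its signal went from 1218.3 to 1954.5.

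The promoter windows of the 9 genes themselves were searched for the same letters. Windows were at hand for 7 of them: Atf6b, Ern1, Xbp1, Mbtps1, Mbtps2, Creb3 and Creb3l2. None of the 7 held an ERSE, an ERSE-II, the XBP1 and ATF6 element TGACGTGG or the cAMP response element TGACGTCA. Of all windows 0.119%, 0.0365%, 0.676% and 1.79% held them. Motifs this rare would seldom fall in any 7 windows, so their absence does not set these genes apart. Shorter cores, which lie inside those motifs, were CCACG (3 of 7 windows, 32.8% of all), TGACG (2 of 7, 20.8% of all) and CCAAT (2 of 7, 37.4% of all). The 250 bases before the start are shown for Creb3, the window with most CCACG, and Creb3l2, which holds TGACG and CCAAT, with these cores on either strand in capitals.
Creb3, chr4:43562408-43562657, plus strand: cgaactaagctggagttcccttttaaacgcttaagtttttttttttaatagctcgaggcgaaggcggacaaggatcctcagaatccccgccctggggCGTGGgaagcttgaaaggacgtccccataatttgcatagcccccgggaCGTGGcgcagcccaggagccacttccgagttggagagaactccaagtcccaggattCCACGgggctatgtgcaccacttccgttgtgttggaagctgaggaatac
Creb3l2, chr6:37442149-37442398, minus strand: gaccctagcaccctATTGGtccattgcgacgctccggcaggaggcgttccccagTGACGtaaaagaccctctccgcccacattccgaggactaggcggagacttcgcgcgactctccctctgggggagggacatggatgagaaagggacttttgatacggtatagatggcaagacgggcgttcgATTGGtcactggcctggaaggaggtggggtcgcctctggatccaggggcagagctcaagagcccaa

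In Creb3 the capitals mark CCACG once and its reverse complement CGTGG in the remaining places. In Creb3l2 they mark TGACG and ATTGG, the reverse complement of CCAAT. These are matches of letters in a window and the array holds no measure of binding.

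Genes downstream and around IRE1 were described next. Of 20 listed targets of spliced XBP1, 18 had a value, 8 above 0 and 10 below, with a median of -0.02. Of the 18, 0 were at least 2-fold higher or lower, against 2.1% and 2.44% of all genes. Serp1, a translocon-associated protein, lay at 0.61, Edem3 at 0.39, Chpt1, a cholinephosphotransferase, at -0.41, and the co-chaperone gene Dnajb9, from 3867.3 to 3065.3, at -0.34. Xbp1 at 0.46 thus stood beside targets on both sides of 0. Of 9 substrates of IRE1-dependent mRNA decay only 5 had a value, with a median of 0.06, from -0.61 for Ergic3 over 4 probe sets to 0.40 for Hgsnat, with the matrix protein gene Sparc at -0.17. Partners and regulators of IRE1 had a median of 0.16 over 12 genes, 9 of them above 0. Rtcb, the RNA ligase that joins the Xbp1 exons after IRE1 has cut, was higher in all 3 probe sets, at 0.44 (4825 to 6538.8 in the brightest), and Rtca, an RNA cyclase, lay at 0.46. Rpap2, a phosphatase that acts on IRE1, had the largest ratio at 0.79, from 575.4 to 894.8.

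**Figure D3:**
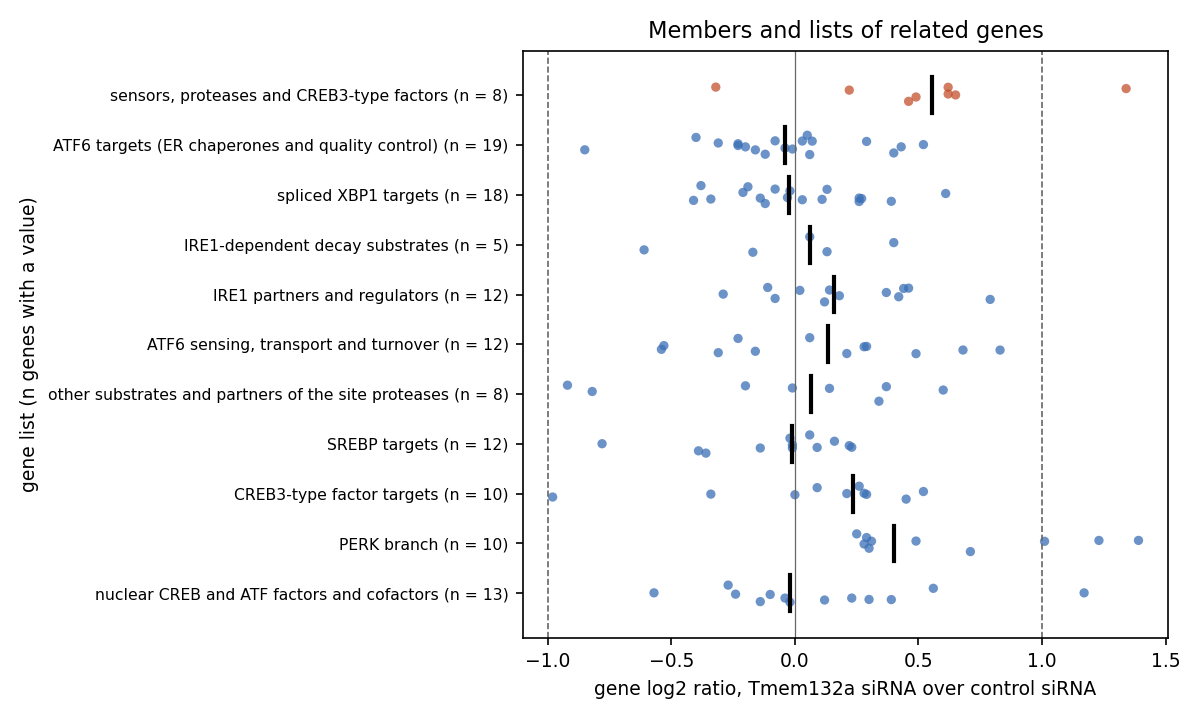
Log2 ratio of each gene (points) in the 8 genes with a value, in red, and in 10 lists of related genes, in blue, with the median of each as a black bar. Dashed lines mark 2-fold, and vertical scatter within a row carries no meaning. The medians of ATF6 targets (-0.04) and spliced XBP1 targets (-0.02) lie at 0, while those of the 8 genes (0.55) and the PERK branch (0.40) lie to the right.

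Proteins that sense with ATF6, carry it or remove it were mixed. The list had 12 genes with a value, 7 above 0 and 5 below, with a median of 0.14. Of the 12, 0 were at least 2-fold higher or lower, against 2.1% and 2.44% of all genes. Wfs1, wolframin, which is known to promote the degradation of ATF6, had 254 and 451.3 (0.83). Pdia5, an isomerase that acts on the disulfide bonds of ATF6, had 838.7 and 576.4 (-0.54), while Txndc12, an oxidoreductase in the same list, lay at 0.49. Sec23a and Sec24a of the COPII coat, on which ATF6 leaves the ER, lay at 0.28 and 0.21.

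The other substrates and partners of the site proteases gave no common direction. Of 8 genes with a value 4 were above 0 and 4 below, with a median of 0.07. Scap, the escort that brings SREBP to the proteases, was lower in both probe sets, from 2451.9 to 1576.8 and from 127.8 to 55.5. The gene ratio was -0.92, and the bright probe set alone gave -0.64. The dim probe set passed the filter through its control signal alone, as its signal with the Tmem132a siRNA lay under the filter value. Srebf1, the SREBP gene of lipid synthesis, went from 3027.7 to 1714.5 (-0.82), while Srebf2, that of sterol synthesis, lay at -0.01 with probe sets at 0.17 and -0.19. Gnptab, whose product is matured by site-1 protease, lay at 0.60. SREBP targets had a median of -0.01 over 12 genes, with 5 above 0 and 7 below, the lowest being Fads2 (-0.78), Fasn (-0.39) and Mvd (-0.36).

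Listed targets of the CREB3-type factors had a median of 0.23 over 10 genes. Of the 10, 0 were at least 2-fold higher or lower, against 2.1% and 2.44% of all genes. Herpud1 (0.52), the Golgi stacking protein gene Gorasp1 (0.45), Arf4 (0.29), Sec23a (0.28) and Sec24d (0.26) were above 0. Of the 10 genes 2 were below 0: Fn1, fibronectin, at -0.98, from 2711.4 to 1712.1 in its brightest probe set, and Kdelr3, a receptor that returns ER proteins from the Golgi, at -0.34 (113.8 to 90.1). Nuclear factors of the CREB and ATF family and their cofactors, which are not membrane-bound, had a median of -0.02 over 13 genes. Crem lay at 1.17 on dim probe sets (125.4 to 220.4 in the brightest), Crtc3 at 0.56, and Nfyb, an NF-Y subunit that binds CCAAT beside ATF6, at -0.57.

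The pattern of Atf6 was set beside that of other genes and of its chromosomal neighbours. Of 2168 genes that had 3 or more probe sets above the filter, 18 (0.83%) had each of these at least 1.5-fold higher. In 2 (0.0923%), Atf6 and the sulfiredoxin gene Srxn1, each was at least 2-fold higher. Probe sets below the filter were not counted, and of the 4 probe sets of Srxn1 3 passed. The naming rule used the 1.5-fold limit, and the 2-fold count is a description only. The 5 others among the 18 with a gene ratio nearest to that of Atf6, over these 2 arrays, were Atcay (1.25), Wipi2 (1.02), Stard5 (1.01), Srxn1 (1.67) and Wars (0.97). The genes next to Atf6 on chromosome 1 did not share its difference: Olfml2b lay at -0.46 (334.2 to 242.5) and Dusp12 at 0.17 (765.3 to 861.4). Xbp1 and Ern1, both on chromosome 11, had neighbours at 0.16 (Znrf3) and -0.33 (Ccdc117), and at 0.30 (Icam2) and 0.36 (Tex2).

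The neighbours of the remaining genes were measured in the same way. Creb3 lies between Tln1 (-0.19) and Gba2, which overlaps it in the gene table. Gba2, a glucosylceramidase, went from 327.3 to 158.8 (-1.04), opposite in sign to Creb3. The neighbour of Mbtps1 with a value, Hsdl1, lay at -0.43, and that of Creb3l2, Dgki, at 0.51.

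**Figure D4:**
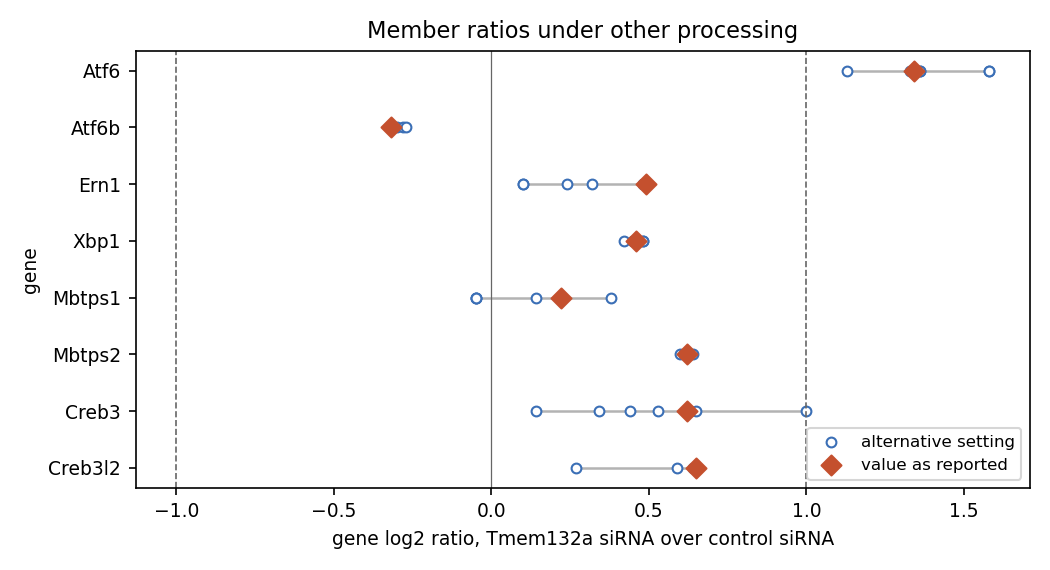
Gene log2 ratio of the 8 genes as reported (diamonds) and under the alternative processing settings that gave a value (open circles, joined by a line), with dashed lines at 2-fold. Atf6 stayed between 1.13 and 1.58, Xbp1 between 0.42 and 0.48, and Creb3 ranged from 0.14 to 0.998.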

How the data were processed

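The authors deposited 1 linear signal intensity per probe set and array, computed with MAS5 per the submitters' processing notes; its version and scaling target are not given in the sources used here. Groups came from the sample titles. Computation used Python 3.11.15, numpy 2.4.6, pandas 2.3.3 and statsmodels 0.14.6, with plots in matplotlib 3.10.9. Of 45101 probe sets 64 controls were left out, and both arrays were set to 1 trimmed mean. Gene names came from the array's annotation table, where 34945 probe sets had 1 symbol, 932 several and 9160 were not listed. The filter was the median of mean signals, signals under the 20th percentile (14.5) were raised to it, and at least 2-fold was the size rule.

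The members, lists, naming rule and alternatives were chosen with earlier results of these data known. Named were all members, direct partners and relatives, at least the 3 largest ratios of each list, further list members as examples, neighbours of members with at least 2 probe sets, and the 5 genes most like Atf6. List genes without an assigned probe set were not analysed here. Promoter sequences are from RefSeq (GRCm38.p6). The procedure was tested on simulated data.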

Additional observations from a re-analysis of the deposited data

How the results depend on the processing

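The direction and size class of the members held under most of the 10 alternatives, namely signals as deposited, ratios centred on their median, quantile normalization, loess, no filter, a 75th percentile filter (462.8), no floor, a pseudocount of 79.2, the brightest probe set, and leaving out x, s and a probe sets. Atf6 was at least 2-fold higher in all of them (1.13 to 1.58), and 0 other members were in any. The value of 1.58 rests on 1 probe set, with the 75th percentile filter and with the brightest probe set. The count of members at least 1.5-fold higher, 4 as reported, ran from 2 (brightest probe set) to 4, and was 3 with no filter, the 75th percentile filter or the pseudocount. Atf6b had no value with the 75th percentile filter. Mbtps1 ranged from -0.05 to 0.38, and lay below 0 in the 3 settings that left only its bright probe set: that filter, the brightest probe set, and no x, s or a probe sets. Ern1 ranged from 0.10 to 0.49 and Creb3l2 from 0.27 to 0.65. With no filter, where dim probe sets enter, 1 member probe set was at least 2-fold lower (of Creb3), the members' median was 0.38, that of IRE1 partners 0.37 and that of the PERK branch 0.74. With the 75th percentile filter, which leaves fewer probe sets, 2 member probe sets were at least 2-fold higher. The medians were then 0.37 for IRE1 partners, -0.20 for substrates and partners of the site proteases and -0.13 for nuclear CREB and ATF factors. The count of member probe sets at least 2-fold higher, 4 as reported, was 5 with quantile normalization or loess and 2 with the pseudocount. When only the brightest probe set counted it was 1, the members' median was 0.31 and that of IRE1 partners 0.35. The share of all genes at least 2-fold higher ran from 0.459% with the pseudocount to 7.21% with no filter. No paired analysis was possible because each group has 1 array. Dim probe sets, such as those of Creb3l1 and the lower ones of Ern1, limit what can be read.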

Other observations

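Genes whose promoter window held other letters read by these factors were counted after the values had been seen. The element TGACGTGG, bound by XBP1s and ATF6, was in windows of 193 genes, of which 94 had a value: 67 lay above 0 and 27 below, with a median of 0.15, and 1 was at least 2-fold higher and 0 lower. The cAMP response element TGACGTCA was in windows of 549 genes, of which 340 had a value: 200 lay above 0 and 140 below, with a median of 0.10, and 5 were at least 2-fold higher and 1 lower. Over all genes 51.8% lay above 0, with a median of 0.02, and 2.1% were at least 2-fold higher. The site of Creld2 printed above also lies in the window of Alg12, a mannosyltransferase gene read in the other direction, and Alg12 lay at -0.09.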
